A study of Mus musculus with 6 samples.

Results

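The loci described here are those of 6 genes that mark or specify granule cells, the principal neurons of the dentate gyrus: Prox1, Neurod1, Neurod2, Bcl11b, Calb1 and C1ql2. Each locus was a window fixed by position on mm9, from 105 to 192 kb long and 785 kb in all. The windows were chr1:191895000-192045000 for Prox1, chr2:79242000-79348000 for Neurod1, chr11:98136000-98241000 for Neurod2, chr12:109100000-109292000 for Bcl11b, chr4:15758000-15885000 for Calb1 and chr1:122187000-122292000 for C1ql2. Open chromatin was mapped by ATAC-seq, which uses the Tn5 transposase to cut and tag exposed DNA, and the data were 1 list of called peaks per library. Peaks of the 6 libraries that overlapped or touched were merged into regions, and 38 of the 70575 regions on chromosomes 1 to 19 and X lay in the windows. All animals were adult mice 8 weeks old whose dentate gyrus was infected with adeno-associated virus (AAV) and microdissected. The 3 EYFP libraries came from animals given the fluorescent protein EYFP, the control, and the 3 cFos libraries from animals given cFos, a subunit of the AP-1 transcription factor that active neurons make. Every library came from 1 animal. The promoter of the virus, the share of cells infected, the time since infection and whether cFos animals also received EYFP are not stated in the labels, and the strain label reads C57BL/6 in EYFP replicate 1 and ends in another number in each other sample. The tissue was bulk, so fewer cells of a type and fewer open copies per cell cannot be told apart.

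Granule cells are born throughout life in the dentate gyrus, and their identity is set by a cascade of transcription factors. Prox1, a homeobox factor, is needed for granule cells to form and to keep their identity. Neurod1 and Neurod2 are basic helix-loop-helix factors that bind E-box motifs and drive excitatory neurons to differentiate and mature, and Bcl11b, also called Ctip2, is a zinc finger factor of postmitotic neurons. Calb1 encodes calbindin, a calcium-binding protein abundant in mature granule cells, whose level in these cells is known to fall after seizures. C1ql2 encodes a secreted protein of the C1q family that granule cells place at their mossy fibre synapses. Whether forced cFos expression goes with a change of accessibility at these loci is the question that the groups address.

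RefSeq promoter sequences on GRCm38.p6 were at hand for Prox1, Neurod1, Neurod2, Bcl11b and C1ql2, 5 of the 6 genes. The 4 shown are those of the neuronal basic helix-loop-helix genes, of Prox1 and of C1ql2, because their loci differ in whether a peak was called in the middle of the window. Each is the 250 bases before the transcript start, 5′ to 3′ on the gene's strand, with capitals marking E-box motifs (CANNTG, the same on both strands). They lie at chr1:190170828-190171077 on the minus strand for Prox1, chr2:79456637-79456886 on the minus strand for Neurod1, chr11:98329646-98329895 on the minus strand for Neurod2 and chr1:120340332-120340581 on the plus strand for C1ql2. These GRCm38.p6 positions are not comparable with the mm9 positions of the peaks, so the sequences were not placed in or out of a peak.
Prox1: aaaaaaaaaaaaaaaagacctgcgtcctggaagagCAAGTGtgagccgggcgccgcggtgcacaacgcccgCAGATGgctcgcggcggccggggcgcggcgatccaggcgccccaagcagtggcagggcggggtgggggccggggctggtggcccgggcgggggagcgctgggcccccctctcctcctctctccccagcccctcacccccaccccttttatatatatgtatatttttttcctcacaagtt
Neurod1: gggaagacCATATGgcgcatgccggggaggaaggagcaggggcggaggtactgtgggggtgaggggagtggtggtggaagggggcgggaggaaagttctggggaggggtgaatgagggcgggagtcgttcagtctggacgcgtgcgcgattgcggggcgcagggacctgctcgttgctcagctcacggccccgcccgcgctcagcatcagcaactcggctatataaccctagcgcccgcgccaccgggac
Neurod2: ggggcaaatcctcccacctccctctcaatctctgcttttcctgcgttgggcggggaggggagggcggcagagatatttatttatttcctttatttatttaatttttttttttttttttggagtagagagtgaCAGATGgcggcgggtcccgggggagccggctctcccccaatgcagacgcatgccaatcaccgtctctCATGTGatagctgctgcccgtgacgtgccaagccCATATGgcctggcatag
C1ql2: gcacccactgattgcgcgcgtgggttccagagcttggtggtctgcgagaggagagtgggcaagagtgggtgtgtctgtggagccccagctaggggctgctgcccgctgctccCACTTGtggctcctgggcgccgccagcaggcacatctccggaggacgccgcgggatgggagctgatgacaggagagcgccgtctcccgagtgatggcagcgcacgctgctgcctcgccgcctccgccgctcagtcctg
The Neurod2 sequence held 3 E-boxes, the Prox1 sequence shown held 2, Neurod1 and C1ql2 held 1 each, and Bcl11b held 0. Of all 32851 promoters in the table, 66.2% held at least 1 E-box in the same 250 bases. The AP-1 motif TGANTCA and the cyclic AMP response element TGACGTCA, both searched on both strands, had 0 matches in these 5 genes. They were present in 6.75% and 1.55% of all promoters. GC content was 67.6% for Neurod1, 68.8% for C1ql2, 64.8% for Prox1, 52.8% for Neurod2 and 44.8% for Bcl11b, against a median of 52.4% over all promoters. The table lists another Prox1 promoter, at chr1:190169516-190169765 on the minus strand (GRCm38.p6) and not shown, with 0 E-boxes and a GC content of 56.0%.

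All 6 loci held called peaks, but few of their regions were shared by all libraries. The windows had 4.84 regions per 100 kb, against 2.74 over the spans of the chromosomes that hold peaks. Regions called by all 6 libraries were about as dense in the windows as elsewhere, at 0.510 and 0.459 per 100 kb. Of the 38 regions, 4 were called by all 6 libraries, or 10.5%, beside 16.8% of all regions. Another 18, or 47.4%, were called by a single library, beside 43.7%. Those called by 3 or more libraries were 14, or 36.8%, beside 40.9%. C1ql2 had the most regions for its length, at 7.62 per 100 kb, and Calb1 the fewest, at 3.15. The 4 shared regions were 2 at Calb1, 1 at Neurod1 and 1 at C1ql2. Prox1, Neurod2 and Bcl11b had none.

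**Figure D1:**
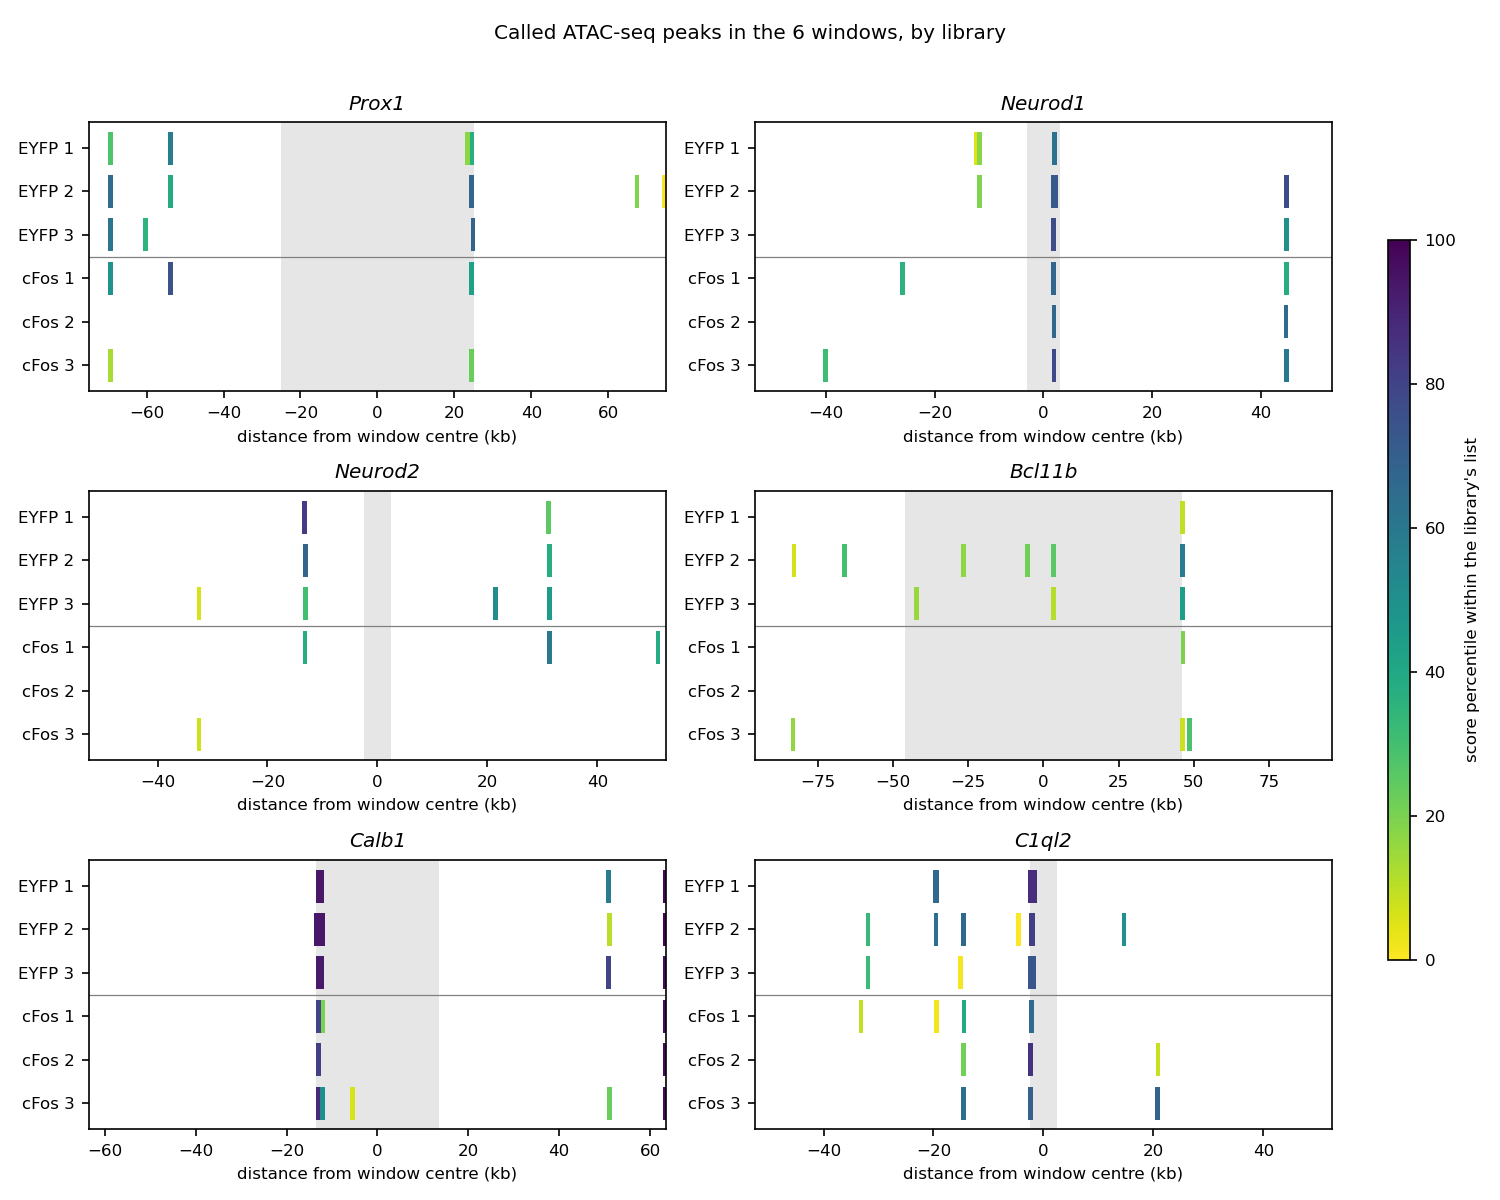
Called peaks in the 6 windows, 1 row per library, by distance from the window centre in kb and coloured by the percentile of the peak's score within its own list. Grey marks the middle of each window, left after taking 50 kb from each end, and narrow peaks are drawn wider than to scale so that they can be seen. cFos replicate 2 has no peak at Prox1, Neurod2 or Bcl11b, and the darkest marks are at Calb1.

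**Figure D2:**
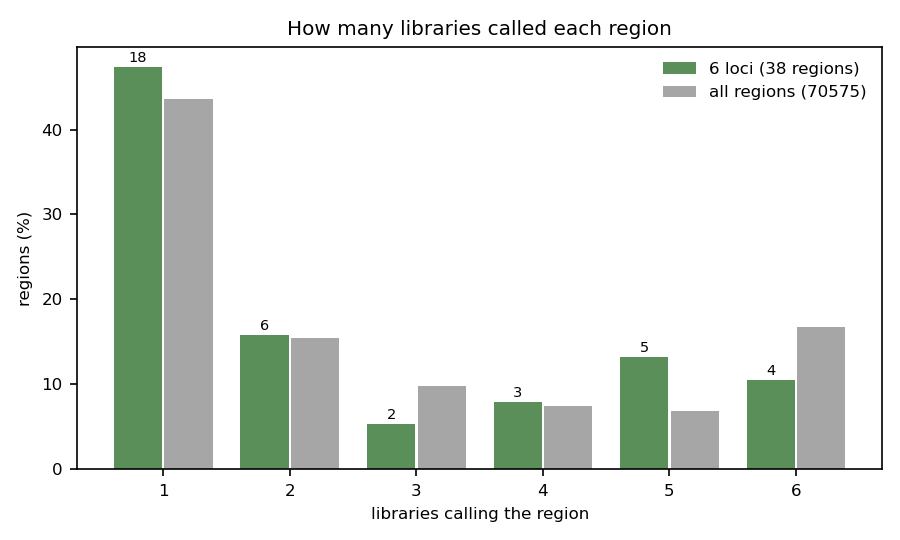
Percent of regions by the number of libraries that called them, for the 38 regions of the 6 loci (green, counts above the bars) and all 70575 regions (grey). The loci had 4 regions called by all 6 libraries and 18 called by 1.

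The single-library regions were weak. Their peaks had a median percentile of 20.4, where a percentile is the rank of a peak's score within its own list, and the highest was 51.0. They were between 238 and 949 bp wide. EYFP replicate 2, the longest list with 44285 peaks, gave 7 of the 18, and cFos replicate 2, the shortest with 23986, gave 0.

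Among the transcription factor loci, Prox1 had 7 regions and 2 of them were called by 5 libraries, all but cFos replicate 2. The wider of these, chr1:191993934-191995282 (1349 bp), also had the highest mean percentile in the window when a library without a call counts as 0. It scored 74.93, 154.56 and 137.82 in EYFP replicates 1 to 3, and 78.45 and 61.78 in cFos replicates 1 and 3. Those scores stood at percentiles 36.8, 67.1 and 67.8 in the EYFP and 43.5 and 22.7 in the cFos lists, so it ranked below the median of 3 of the 5 lists that held it. The other, chr1:191900335-191900973, lay at the far end of the window and scored 65.85, 145.55 and 116.33 in EYFP replicates 1 to 3, and 85.34 and 56.11 in cFos replicates 1 and 3. In both regions the scores of the groups overlapped, because EYFP replicate 1 lay below cFos replicate 1. One more region, chr1:191915833-191916512, was called in EYFP replicates 1 and 2 and had its highest score, 156.51, in cFos replicate 1, at percentile 74.9, the highest of any peak in the window.

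Neurod1 had the one shared region among the transcription factors. This region, chr2:79296425-79297587 (1163 bp), scored 118.29, 180.96 and 184.49 in EYFP replicates 1 to 3 and 126.06, 123.95 and 187.33 in cFos replicates 1 to 3. The groups overlapped fully, and the mean score was 161 ± 37.2 in EYFP and 146 ± 36.0 in cFos libraries (SD, n = 3 per group, exact permutation p = 1, two-sided like all such tests here). Its mean percentile was 70.6 ± 7.55 in EYFP and 71.0 ± 6.18 in cFos libraries. Only the width of its peaks was apart, at 818 to 1163 bp in EYFP and 501 to 789 bp in cFos libraries (exact permutation p = 0.1, below which 3 against 3 cannot go). A second region, chr2:79339352-79339911, was called in all 3 cFos libraries at scores of 72.89, 119.26 and 111.82. In EYFP it was called in replicates 2 and 3 at 208.97 and 93.24. The remaining 4 Neurod1 regions were called by 1 or 2 libraries.

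At Neurod2 no peak of any library fell in the 5 kb middle of the window. The 2 most often called regions lay on either side of it and were each called by 3 EYFP libraries and by cFos replicate 1. The higher-ranking, chr11:98174913-98175690, scored 212.15, 157.69 and 68.04 in EYFP replicates 1 to 3 and 72.49 in cFos replicate 1. The other, chr11:98219407-98220178, scored 63.76, 83.34 and 84.59 in EYFP replicates and 106.17 in cFos replicate 1, which was its highest value. This window is also the most crowded. Within 50 kb of Neurod2 the GRCm38.p6 gene table lists 8 other genes, 4 of them protein-coding, among them Cdk12, a kinase of transcription, and Ppp1r1b, which encodes a phosphatase inhibitor of dopamine signalling. Which gene a Neurod2 window region belongs to was not examined.

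Bcl11b had the longest window and the least accessible sequence for its length. Of its 8 regions 5 were called by a single library. The most often called, chr12:109241976-109242688, scored 54.28, 125.35 and 84.29 in EYFP replicates 1 to 3, and 58.71 and 53.36 in cFos replicates 1 and 3. Percentiles ran from 8.2 in cFos replicate 3 to 58.9 in EYFP replicate 2, so this region was called by 5 libraries at a low rank in several. No cFos peak fell in the 92 kb middle of the window, which this region reaches only at its edge, by the peak of EYFP replicate 1. The 4 others there came from EYFP replicates 2 and 3 with scores from 55.3 to 68.12, near the lowest score in the lists, 50.

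Calb1 stood at the other end of the ranks. Its first shared region, chr4:15807620-15809894, was the widest of the 38 at 2275 bp. It scored 372.37, 467.12 and 382.47 in EYFP replicates 1 to 3, and 183.02, 189.24 and 293.95 in cFos replicates 1 to 3. All 3 cFos libraries lay below all 3 EYFP libraries. The mean score was 407 ± 52.0 in EYFP and 222 ± 62.3 in cFos libraries, a ratio of 0.545 (SD, n = 3 per group, exact permutation p = 0.1). Over all regions that the 6 libraries called, the median of this ratio was 0.787. Percentiles within each list showed the same separation at this Calb1 region, from 93.0 to 94.0 in EYFP and 79.6 to 88.3 in cFos libraries. Their difference was -10.4, beside a median of -3.23 over all regions that the 6 libraries called. On lists reduced to equal length the percentiles of the Calb1 region were 88.6 to 92.6 and 77.3 to 83.1.

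The cFos peaks of this Calb1 region also covered less of it. EYFP libraries covered 1746, 2270 and 1944 bp and cFos libraries 1386, 987 and 1480 bp. In every EYFP library it was 1 unbroken peak. In cFos replicates 1 and 3 it was split into 2 peaks with gaps of 258 and 313 bp, the second of them weak at scores of 58.88 and 94.34, and in cFos replicate 2 the second part was not called. A split in at least 2 cFos libraries with 1 peak in every EYFP library occurred in 1.01% of the 11837 regions that all 6 libraries called, and the opposite split in 0.194%. These percentages were computed after the split was seen. They cover regions of any width, whose covered bases had a median of 897 in EYFP and 679 in cFos libraries. This region is far wider, and how often regions as wide are split was not examined.

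The other measures of the Calb1 region were more common among the 11837 regions, again of any width. Percentiles were lower in every cFos library in 13.2% of the 11837 regions and higher in every cFos library in 2.03%. Of the 4 shared regions at the loci, 1 was lower and 0 were higher. Scores were lower in every cFos library in 15.1% of the regions and higher in 0.853%, and 1 and 0 of the 4 shared regions were so. Covered bases were lower in every cFos library in 34.2% and higher in 0.321%, beside 3 and 0 of the 4. Their median ratio of cFos to EYFP over the 11837 regions was 0.785. Score, percentile and covered bases were lower together in 6.71%. A mean percentile at least as far below EYFP as here was found in 25.4% of them.

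The second shared Calb1 region, chr4:15884762-15886155, crosses the end of the window and had the highest scores of the 38. It scored 563.55, 805.43 and 506.49 in EYFP replicates 1 to 3 and 441.71, 503.22 and 551.57 in cFos replicates 1 to 3, at percentiles between 96.6 and 98.9 in all libraries. The groups overlapped, and the difference in percentile was -0.760 (exact permutation p = 0.4). The next protein-coding gene after Calb1 in the GRCm38.p6 table is Decr1, a mitochondrial enzyme of fatty acid breakdown, which lies within 50 kb, and whether this region belongs to it was not examined. Between both, chr4:15871931-15872835 was called in all EYFP libraries, at 109.28, 55.79 and 203.69, and in cFos replicate 3 alone of its group, at 61.9.

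**Figure D3:**
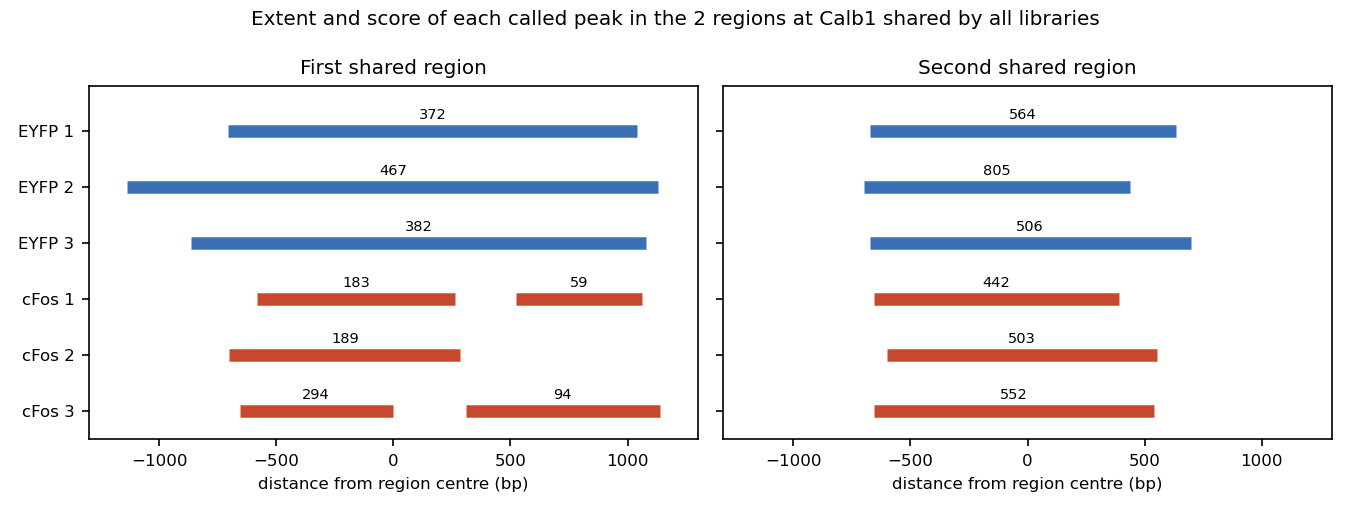
Extent in bp and score (number above each bar) of every called peak in the 2 Calb1 regions that all libraries called, EYFP in blue and cFos in red, by distance from the region centre. In the first region each EYFP peak is unbroken and scores 372 to 467, while the highest cFos scores are 183 to 294. In the second the groups overlap.

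C1ql2 combined a shared region with many weaker ones. The shared region, chr1:122236642-122238272 (1631 bp), scored 256.83, 244.37 and 163.25 in EYFP replicates 1 to 3 and 119.47, 221.72 and 141.41 in cFos replicates 1 to 3. The means were 221 ± 50.8 and 161 ± 53.8 (SD, n = 3 per group, exact permutation p = 0.2), and cFos replicate 2 lay above EYFP replicate 3. Covered bases did not overlap, at 1183 to 1517 bp in EYFP and 790 to 994 bp in cFos libraries. Its percentile differed by -7.27 (exact permutation p = 0.3). Its neighbour, chr1:122224227-122225322, was called in all cFos libraries at 74.76, 59.42 and 124.23 and in EYFP replicates 2 and 3 at 150.35 and 50.53. At chr1:122260076-122260626 cFos replicates 2 and 3 had peaks of 53.26 and 139.3 and no EYFP library did. The reverse held at chr1:122207417-122207737, where EYFP replicates 2 and 3 had peaks of 76.43 and 69.99 and no cFos library did. At chr1:122219445-122220422 EYFP replicates 1 and 2 scored 129.94 and 140.85, and cFos replicate 1 scored 50.78.

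**Figure D4:**
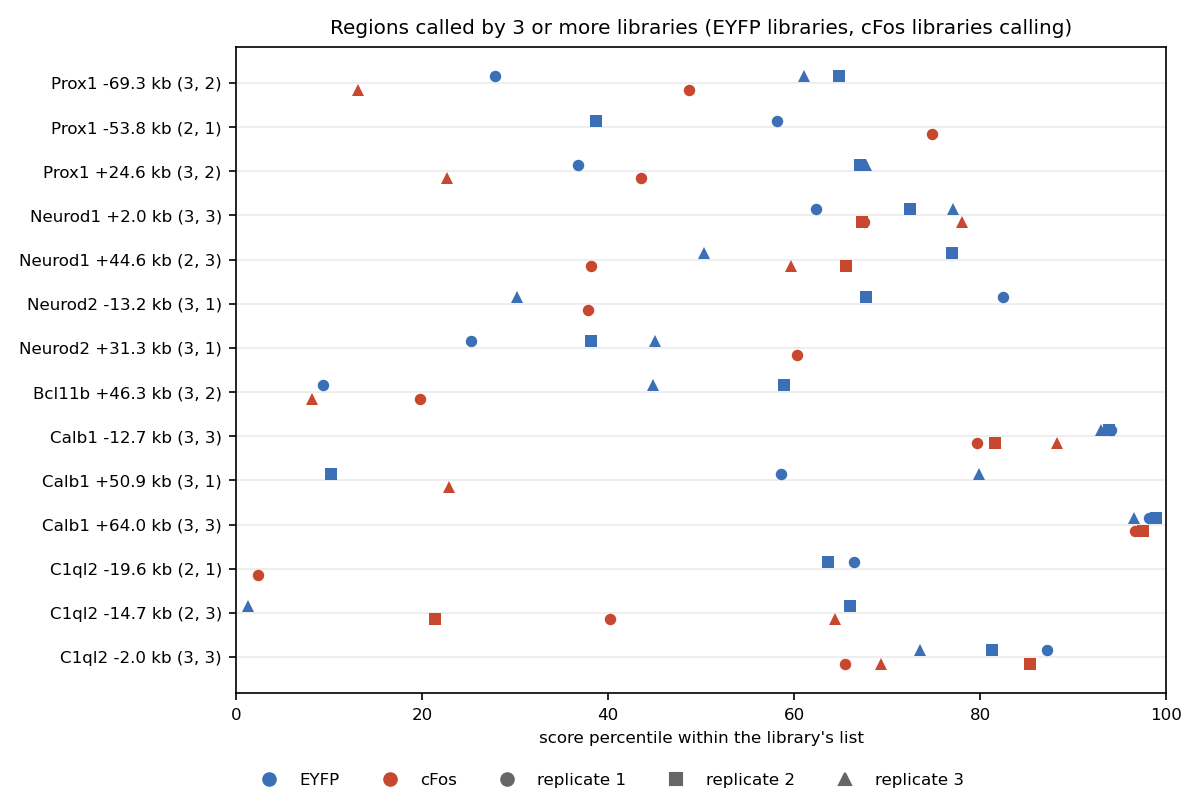
Score percentile in each library for the 14 regions that 3 or more libraries called, labelled by gene and distance from the window centre, with the number of EYFP and cFos libraries calling in brackets. Both shared Calb1 regions lie at the right, and of the 4 regions called by all libraries the groups separate in the Calb1 region at -12.7 kb.

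The middle of each window, left after 50 kb was taken from each end, differs from the gene's length in the GRCm38.p6 table by at most 2.79 kb, although the gene itself was not placed on mm9. Called regions lay at 1 edge of this middle in 5 of the 6 loci. They touched or came within 413 bp of the edge at Prox1, Neurod1, Bcl11b, Calb1 and C1ql2, and each of these 5 regions was called by 5 or 6 libraries. For the 5 genes with a strand in the RefSeq table, the edge on the side of the transcript start had a region within 1 kb in 4 and the opposite edge in 0. Neurod2 was the exception, with its nearest region 15310 bp from that edge. The chromosome spans held 2.74 regions per 100 kb, but how often other genes have a region at such an edge was not examined. The counts therefore do not show whether these loci are unusual.

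Fewer bases were called accessible at these loci in the cFos libraries. Peaks covered 10.6, 17.1 and 11.95 kb of the 6 windows in EYFP replicates 1 to 3 and 8.21, 4.18 and 8.18 kb in cFos replicates 1 to 3. The groups did not overlap, with means of 13.2 ± 3.42 and 6.86 ± 2.32 kb (SD, n = 3 per group, exact permutation p = 0.1). Whole lists differed in the same direction, at 24.3 ± 5.64 and 15.8 ± 2.66 Mb, so the loci were also set against them. The windows held 0.0542 ± 0.00161% of the peak sequence of an EYFP list and 0.0431 ± 0.0124% of that of a cFos list (exact permutation p = 0.3). The shares were 0.0524, 0.0556 and 0.0545% in EYFP replicates 1 to 3 and 0.0552, 0.0305 and 0.0435% in cFos replicates 1 to 3. The groups overlapped through cFos replicate 1 alone. Among peaks scoring above 93.41, the median of the pooled lists, the shares did not overlap, with a difference of -0.0140 percentage points (exact permutation p = 0.1). On the full lists the difference was -0.0111 percentage points, and without cFos replicate 1 it was -0.0172 (exact permutation p = 0.1). The number of peaks was 15, 25 and 18 in EYFP and 17, 7 and 17 in cFos replicates, which overlapped (p = 0.4 in the same exact permutation test).

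Covered sequence was lower on average in cFos libraries at all 6 loci on the lists as deposited, with a median ratio of 0.464. The cFos mean was also lower in 83.8% of 16971 windows of 130 kb tiled over the genome that held a peak. Medians over these tiles were 1.05 kb in EYFP and 0.624 kb in cFos libraries, so the shared direction is not particular to the loci. The groups were apart at Prox1 and Calb1 only, 2 of 6 loci. Of the tiles, 24.6% were lower in every cFos library and 0.813% were higher in every cFos library. Prox1 had 2.08, 3.19 and 1.99 kb covered in EYFP replicates 1 to 3 and 1.51, 0 and 1.05 kb in cFos replicates 1 to 3. On equal-length lists cFos replicate 1, at 1.51 kb, lay above EYFP replicate 1, at 1.33 kb, and the separation at Prox1 ended. Calb1 had 2.87, 2.95 and 2.96 kb in EYFP and 1.59, 1.13 and 2.34 kb in cFos replicates, and on equal-length lists still 2.51 to 2.96 against 1.13 to 1.68 kb. With every peak set to 400 bp the Calb1 difference turned from -1.24 to 0.133 kb, since the number of peaks there, 3 in each EYFP and 3, 2 and 5 in cFos libraries, was not lower. Neurod1, Neurod2, Bcl11b and C1ql2 had overlapping values with exact permutation p between 0.2 and 0.4. The Neurod1 difference of -0.369 kb turned to 0.0653 kb on equal-length lists, 0.0880 kb on half-length lists and 0 kb with peaks of 400 bp.

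**Figure D5:**
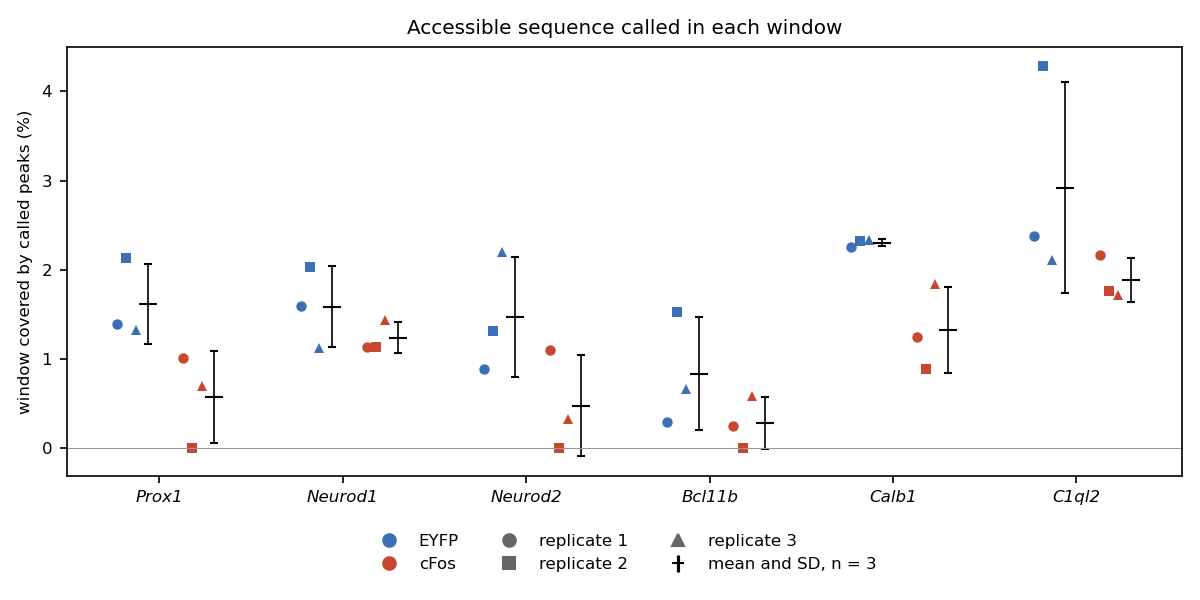
Percent of each window covered by called peaks, by gene, with 1 point per library (EYFP blue, cFos red, shape by replicate) and the mean and SD of each group (n = 3) in black. Groups are apart at Prox1 and Calb1, and cFos replicate 2 is at 0 at 3 loci.

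Relative to its length, C1ql2 was the most covered locus in both groups, with 2.92 ± 1.18% of the window in EYFP and 1.88 ± 0.246% in cFos libraries (SD, n = 3). Calb1 followed with 2.30 ± 0.0413% and 1.33 ± 0.482%. In EYFP libraries Prox1 (1.61 ± 0.445%), Neurod1 (1.58 ± 0.455%), Neurod2 (1.47 ± 0.673%) and Bcl11b (0.832 ± 0.633%) came next. In cFos libraries Neurod1 (1.24 ± 0.173%) came before Prox1 (0.569 ± 0.517%), Neurod2 (0.474 ± 0.566%) and Bcl11b (0.277 ± 0.292%). Of neighbours in this order, only Calb1 and Prox1 in EYFP and Neurod1 and Prox1 in cFos libraries had ranges that did not overlap. Across the chromosome spans, between 0.533% and 1.19% was covered per library.

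cFos replicate 2 differed from the other libraries at these loci. It had peaks at 3 of the 6 loci, Neurod1, Calb1 and C1ql2, while every other library had peaks at all 6. Its density of peaks in the windows was 0.958 times that of its whole list, against 1.61 to 2.09 times in the other 5 libraries. On equal-length lists it had 7 peaks in the windows, cFos replicate 3 had 9 and the others 11 to 15. Its 4 shared-region peaks lay at percentiles from 67.3 to 97.5. Regions that all 6 libraries called rank high by choice, with a median percentile of 75.4 in cFos libraries. Without cFos replicate 2, the difference in peaks at the 6 loci went from -5.67 to -2.33. That in share of peak sequence went from -0.0111 to -0.00480 percentage points, and that in covered sequence from -6.38 to -5.04 kb. Lists differed in length, from 23986 to 44285 peaks, and the part of read depth in these values was not tested.

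No region at these loci was particular to a group in the sense of being called by all its libraries and by none of the other. The count was 0 of 38 for EYFP and 0 for cFos, beside 1.97% and 0.449% of all regions. Regions called only in EYFP libraries, by 1 to 3 of them, numbered 15, or 39.5%, beside 33.8% of all regions. Those called only in cFos libraries numbered 7, or 18.4%, beside 20.8%. The other 16 were called in both groups, or 42.1%, beside 45.4%.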

How the data were processed

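ATAC-seq peak lists of 3 EYFP and 3 cFos libraries, grouped and numbered by their titles, were used. The submitters' processing notes name Bowtie2 and the build mm9. Each deposited list gives positions, a name beginning with MACS and a score from 50 to 3100, the authors' own value per peak, not normalized between libraries here. The caller's version, threshold and control, and what the score measures, are not stated in the sources. Read depth is unknown, so an uncalled site need not be closed, and the number of animals sets the precision. Positions are printed 1-based.

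Peaks on chromosomes 1 to 19 and X were merged where they touched or overlapped, which gave the same regions as bedtools. A region counted as in a window with 1 bp of overlap, and covered sequence was cut at the window's ends. A library's percentile in a region is the rank of its highest peak there. Group means were compared by two-sided exact permutation over all 20 assignments, where the smallest p is 0.1, so no result could pass 0.05 and no adjustment was made. Merging, calling and the permutation test were tested on simulated data. The members and lists were chosen with earlier results of these data known. Regions named were the highest-ranking and the widest of each window, and shared regions whose groups did not overlap. The rule also took regions called in all libraries of 1 group and none of the other, but no region met it. The rest were named after their values were seen. Alternatives were a score above 93.41, lists of 23986 and 11993 peaks, 400 bp peaks, merging across 200 bp, coverage of 50% of a region, the middle of the windows, peaks wholly inside them, each library left out and the replicate number as a block. Same-numbered libraries did not deviate together (correlations of -0.0148, -0.00774 and 0.00300 over presence in 70575 regions). At most 2 peaks had identical ends in any pair of libraries. No mm9 annotation was used, so regions were not assigned to promoters, exons or introns, and marker genes of other cell types and further granule cell genes were not analysed here. Promoter sequences and neighbouring genes came from RefSeq tables on GRCm38.p6. The tools were Python 3.11.15 with pandas 2.3.3, numpy 2.4.6 and, for the plots, matplotlib 3.10.9.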

Additional observations from a re-analysis of the deposited data

How the results depend on the processing

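Of 229 values recomputed under an alternative, 209 kept their direction or count. Some could not change. The replicate block leaves every difference of means as it was, and peaks of 400 bp can alter peak numbers only at a window's ends. The 229 also include values of single shared regions, added after seeing the data, which partly repeat planned ones. With 3 libraries a group no test could pass 0.05 under any alternative, so the 209 say nothing of significance. The covered sequence at Neurod1 changed from -0.369 kb to 0.0653 on equal-length lists, 0.0880 on half-length lists and 0 with peaks of 400 bp, which also turned Calb1 to 0.133 kb. Peaks at the 6 loci differed by 0 on half-length lists. The Neurod1 percentile changed from 0.318 to -4.77 with a score above 93.41, where ranks were taken anew within the shortened lists. With a library left out, a further region can become shared and enter the mean. The Neurod1 mean then ranged from -6.50 to 3.54 and the C1ql2 mean from -13.2 to 2.16, with the lowest Neurod1 and the highest C1ql2 value, both without EYFP replicate 1, each averaged over such a further region. The region that the 6 libraries share, taken alone in a check added after seeing the data, ranged from -3.84 (without EYFP replicate 1) to 3.54 at Neurod1, with -3.25 without cFos replicate 3, and from -13.2 to -3.30 at C1ql2, with -4.01 without EYFP replicate 1. When a library had to cover 50% of a region, 1 region was EYFP-only and 0 shared regions had groups apart. Leaving out a library gave 0 to 3 group-only regions and 1 to 2 shared regions with groups apart. With the replicate number as a block the difference at the 6 loci was the same -6.38 kb (exact sign-flip permutation p = 0.25, the smallest possible), and the block moved no value. The percentile of the first Calb1 region, in the same check, was lower in cFos under its 11 alternatives, by -23.5 to -8.64. Ranking anew within shortened lists changes the scale of percentiles. The -23.5, at a score above 93.41, is therefore not comparable in size with the -10.4 on full lists. No value could be had for the shared-region percentile at Prox1, Neurod2 and Bcl11b, for Neurod1 on half-length lists and under 50% coverage, for C1ql2 and the first Calb1 region under 50% coverage, for covered sequence at Bcl11b on half-length lists and for Neurod2 in the middle of its window. The cause of these changes was not tested.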

Other observations

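The surroundings of the loci, looked at after the windows had been described, held 29 regions called by all 6 libraries within 500 kb beyond the windows, or 0.483 per 100 kb, close to the 0.459 per 100 kb of the chromosome spans. Neurod1 had 8 of them, Calb1 7, Neurod2 6, Bcl11b and C1ql2 3 each and Prox1 2. Prox1, whose window held none, had its nearest at chr1:191745636-191746535, 148 kb away, at percentiles from 38.8 to 73.6. Bcl11b had a strong one at chr12:109416415-109418450, 124 kb beyond its window, at percentiles from 94.5 to 98.3, far above any region inside the window. The nearest to Calb1 lay 55.4 kb away at chr4:15940369-15941928, with percentiles from 99.0 to 99.6. The percentile was lower in every cFos library in 4 of the 29, or 13.8%, beside 13.2% of all regions that the 6 libraries called, and higher in every cFos library in 0.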
